A study of Mus musculus with 25 samples.

Results

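The genes described here encode the parts of respiratory complexes II, III, IV and V, and they were chosen by symbol: every gene of the array annotation whose symbol starts with Sdha, Sdhb, Sdhc, Sdhd, Uqcr, Cox4i, Cox5, Cox6, Cox7, Cox8 or Atp5, with Cyc1 added. The rule found 51 of the 19938 genes measured, of which 8 belong to complex II (4 subunits and 4 assembly factors), 9 to complex III, 17 to complex IV and 17 to complex V. RNA came from cultured neonatal mouse cardiac myocytes, either wild type (WT) or from transgenic (TG) mice in which the mlc2v promoter drives CHF1/Hey2, a transcriptional repressor of the Hairy-related family, in the myocardium. WT myocytes in serum free medium gave 5 independent cultures and TG myocytes 6, and after 24 hours in 20% fetal bovine serum, used as a hypertrophic stimulus, there were 7 cultures of each genotype. No other allele or agent is given in the labels, and the strain is not given in the sources used here. The study checked the purity of each myocyte preparation by staining for sarcomeric myosin and reported that nearly all cells were positive. Each culture was hybridised to 1 Affymetrix Mouse Gene ST array. All values are normalised intensities on the log2 scale, so a difference of 1 is a doubling, and differences are TG minus WT throughout.

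The mitochondrial respiratory chain passes electrons from NADH and succinate to oxygen and stores the energy as a proton gradient across the inner membrane. Complex II (succinate dehydrogenase) feeds electrons from succinate into ubiquinone, complex III moves them on to cytochrome c, complex IV (cytochrome c oxidase) hands them to oxygen, and complex V (ATP synthase) uses the gradient to make ATP. Heart muscle depends on this pathway for nearly all of its ATP, and several subunits of complex IV come as a ubiquitous (liver type) isoform and a form restricted to heart and skeletal muscle (heart type) that replaces it as the heart matures after birth.

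The transgene was visible in all TG cultures: Hey2 itself lay between 6.12 and 6.37 in WT and between 7.08 and 8.55 in TG myocytes without serum, and between 6.59 and 7.36 in WT and 7.94 and 9.36 in TG myocytes with serum. Myocyte transcripts were bright in each group, with Tnnt2 (cardiac troponin T) at 12.61 or higher in every culture, and Col1a1, a fibroblast collagen, at 11.26 or higher. Cultures of 1 group differed from each other, with a mean over the 51 genes between 9.53 and 9.97 in TG and 9.55 and 9.86 in WT myocytes without serum. TG no serum replicate 5 was the lowest TG culture without serum for 40 of the 51 genes, WT no serum replicate 2 the lowest WT culture for 34, TG serum replicate 6 the lowest for 33, and WT serum replicates 3 and 4 the lowest for 20 and 23. These 5 cultures also had the lowest mean of 20 cardiac myocyte markers in their group (10.25, 10.35, 10.87, 10.76 and 10.79, against 10.73 to 11.92 in the others). In whole cultures fewer myocytes and less RNA per myocyte cannot be told apart.

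**Figure D1:**
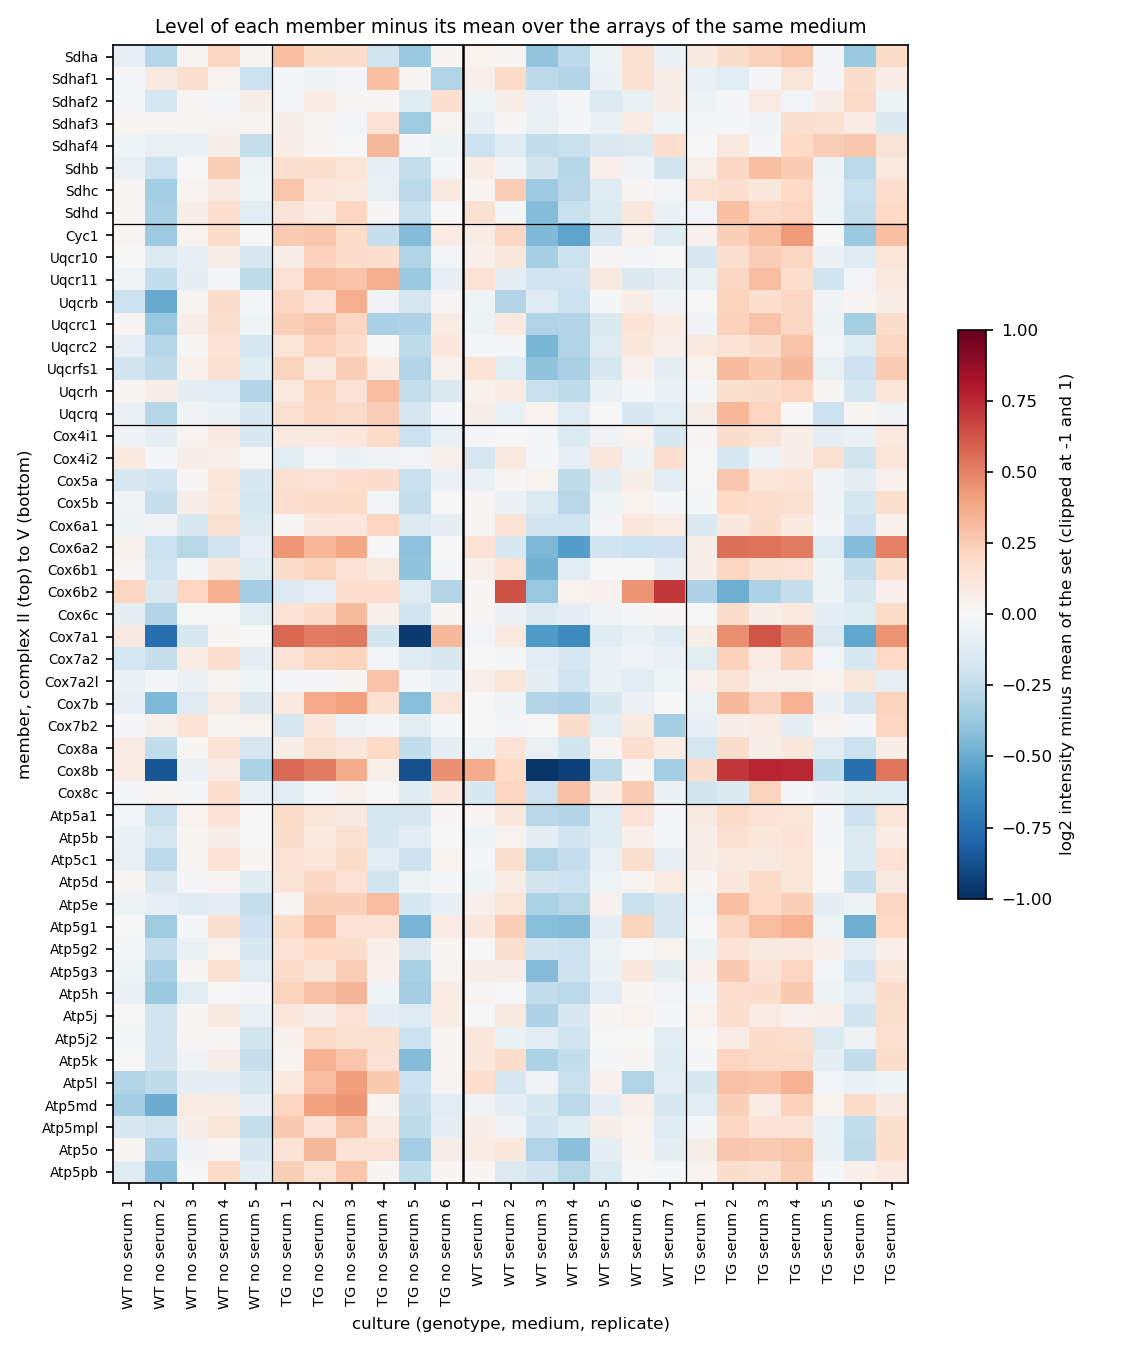
Level of each of the 51 genes (rows, complex II at the top to complex V at the bottom) in each of the 25 cultures (columns), as log2 intensity minus the mean of that gene over the arrays of the same medium, with colours clipped at -1 and 1. Most rows are blue in WT no serum 2, TG no serum 5, WT serum 3 and 4 and TG serum 6, and the rows of Cox6a2, Cox7a1 and Cox8b carry the strongest colours.

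To see whether CHF1/Hey2 overexpression altered the respiratory genes of unstimulated cells, TG and WT myocytes without serum were compared with limma. Most of the genes were slightly higher in TG myocytes. The difference was above 0 for 45 of the 51, against 45.2% of all genes, with a median of 0.11 over the 51 and -0.0083 over all genes. After quantile normalising the arrays again the median over the 51 was 0.076, with 45 still above 0. Medians by complex were 0.044 for complex II, 0.14 for complex III, 0.080 for complex IV and 0.15 for complex V. No single gene passed the test. At an unadjusted p under 0.05, 4 were higher (Atp5e, Atp5g2, Atp5l and Uqcrq), where 1.84% of all genes were, and 0 were lower, where 2.56% were. After Benjamini-Hochberg adjustment over all probe sets 0 passed (0% of all genes), and in 0 genes did every TG culture lie above every WT culture (0.15% of all genes). The count of 4 depended on single cultures: leaving out TG replicate 5 gave 24, and leaving out TG replicate 2, 3 or 4 or WT replicate 3 or 5 gave 2. It was 16 without WT replicate 2 and TG replicates 4 and 5 together, the cultures with the lowest myocyte marker means.

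The same comparison after serum asked whether the genotypes differed under the hypertrophic stimulus. Here 47 of the 51 genes were higher in TG myocytes, against 44.6% of all genes, with a median of 0.13 over the 51 and -0.016 over all genes. By complex the medians were 0.15, 0.14, 0.096 and 0.13 for complexes II, III, IV and V. At an unadjusted p under 0.05, 11 genes were higher (5.15% of all genes) and 1, Cox6b2, was lower (6.32%). Again 0 passed the adjusted threshold (0.00502% of all genes), and 0 had all TG cultures above all WT cultures (0.11%). The 11 were Sdhaf4 of complex II, Uqcrb, Uqcrc2 and Uqcrfs1 of complex III, Cox6a2, Cox7a1 and Cox7b of complex IV, and Atp5e, Atp5h, Atp5md and Atp5pb of complex V. Leaving out TG serum replicate 6 raised the count from 11 to 26 and leaving out WT replicate 2 raised it to 17. It was 6 without WT replicate 3, WT replicate 4, TG replicate 2 or TG replicate 4, and 7 without TG replicate 3 or 7. No gene had a TG effect that differed between the media at an unadjusted p under 0.05 (0 of 51, against 3.15% of all genes). Arrays with and without serum differed in scale, so this result does not show that the TG effects were equal. The p-values measure the spread between these cultures, since the labels do not say whether they came from separate litters.

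**Figure D2:**
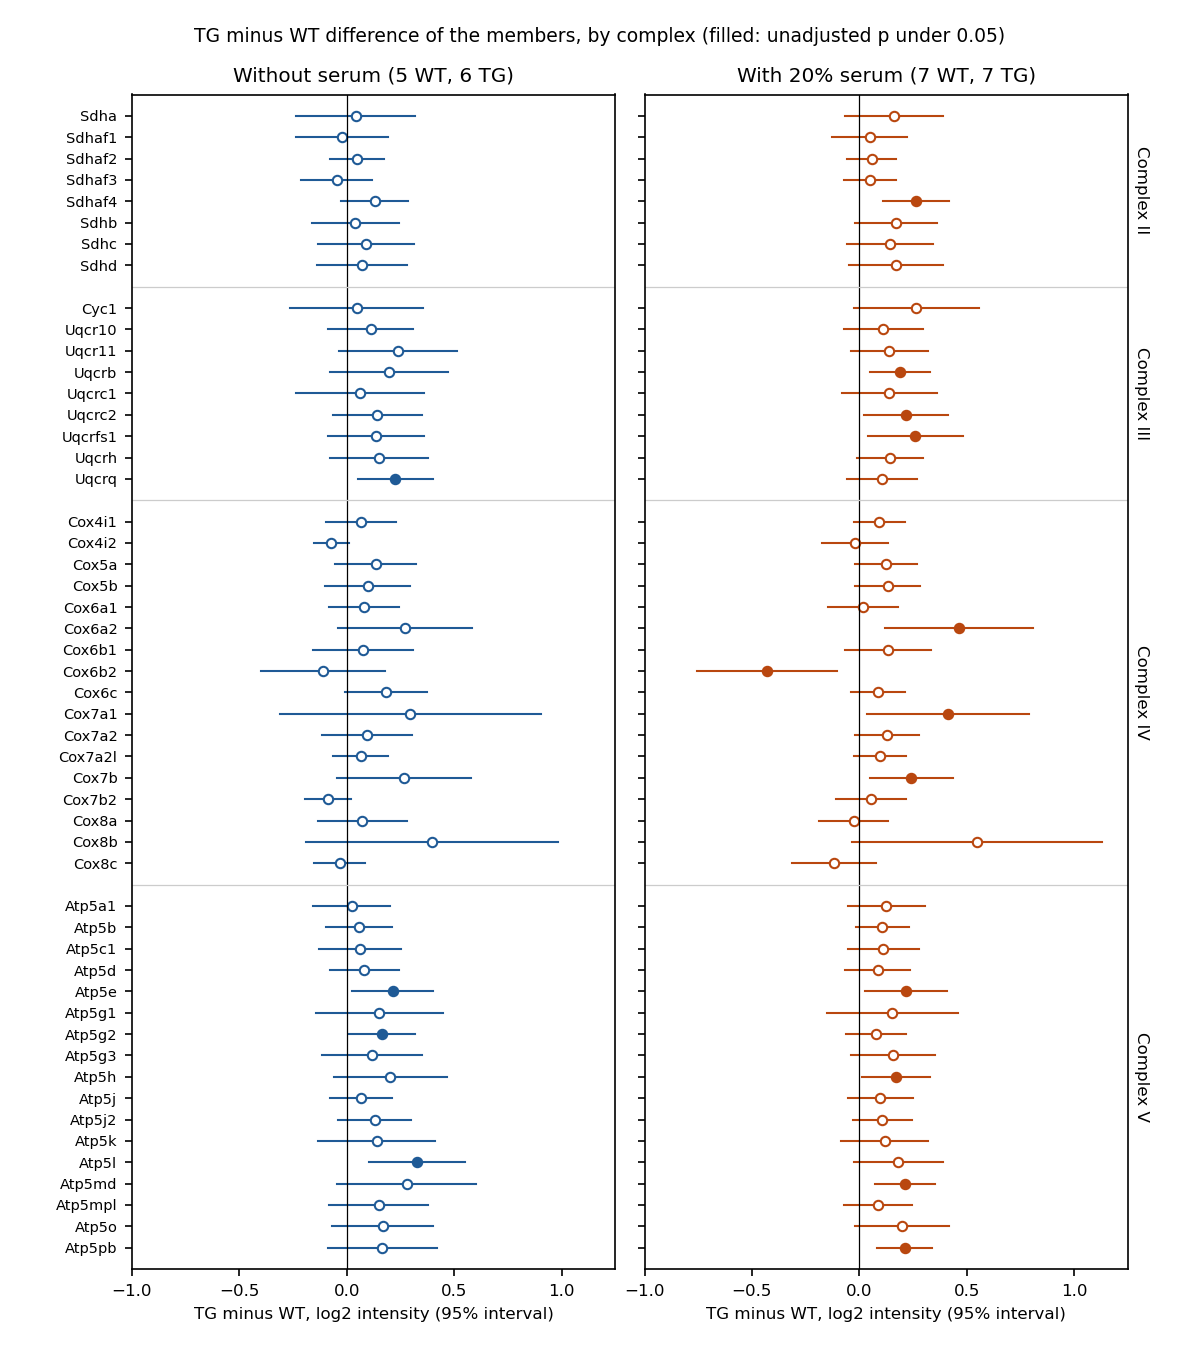
TG minus WT difference (log2 intensity, points) with its 95% interval from limma (lines) for the 51 genes grouped by complex, without serum (left, 5 WT and 6 TG cultures) and with serum (right, 7 and 7), where filled points have an unadjusted p under 0.05. Nearly all points lie a little to the right of 0, and with serum the 3 largest positive differences are those of the heart type subunits Cox6a2, Cox7a1 and Cox8b.

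In complex IV the heart type subunits had the largest positive differences, none of which passed the adjusted threshold. Cox6a2, Cox7a1 and Cox8b encode the muscle forms of 3 small nuclear-encoded subunits that sit around the catalytic core, and Cox6a1, Cox7a2 and Cox8a the forms found in all tissues. The promoters of the Cox7a and Cox8 pairs are shown because they set a heart type gene with a large difference beside its partner with a small one. Each run is the 250 bases before the RefSeq start site in GRCm38.p6, 5′ to 3′ on the strand of the gene, and capitals mark E-boxes (CANNTG), the core element of basic helix-loop-helix factors and of many muscle promoters. Cox7a1 is read at chr7:30183921-30184170 (plus strand), Cox7a2 at chr9:79759854-79760103, Cox8b at chr7:140900447-140900696 and Cox8a at chr19:7217617-7217866 (minus strand).
Cox7a1 (heart type): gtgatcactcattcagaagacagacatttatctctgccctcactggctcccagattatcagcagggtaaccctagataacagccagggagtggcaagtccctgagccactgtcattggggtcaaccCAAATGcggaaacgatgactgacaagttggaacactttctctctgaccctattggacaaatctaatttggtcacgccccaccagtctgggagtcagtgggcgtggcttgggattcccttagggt
Cox7a2 (liver type): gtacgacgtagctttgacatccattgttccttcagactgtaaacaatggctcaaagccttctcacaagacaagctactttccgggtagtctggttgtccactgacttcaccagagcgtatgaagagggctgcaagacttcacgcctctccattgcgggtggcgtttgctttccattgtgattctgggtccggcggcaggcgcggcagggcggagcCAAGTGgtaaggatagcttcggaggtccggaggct
Cox8b (heart type): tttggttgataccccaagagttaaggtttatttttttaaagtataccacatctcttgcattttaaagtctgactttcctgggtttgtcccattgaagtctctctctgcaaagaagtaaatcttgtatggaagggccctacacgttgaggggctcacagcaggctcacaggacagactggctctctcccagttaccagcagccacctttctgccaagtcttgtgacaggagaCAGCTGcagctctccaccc
Cox8a (liver type): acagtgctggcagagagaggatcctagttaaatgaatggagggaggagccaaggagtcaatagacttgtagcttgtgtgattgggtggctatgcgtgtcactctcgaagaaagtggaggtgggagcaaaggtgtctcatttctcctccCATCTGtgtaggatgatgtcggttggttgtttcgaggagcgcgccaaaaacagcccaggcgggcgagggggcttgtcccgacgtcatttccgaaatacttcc
Each of these 4 windows held 1 E-box, and 69.3% of all genes with a promoter entry held at least 1. The window of the liver type Cox6a1 held 0, and Cox6a2 had no entry in the table. In Cox8b the E-box was CAGCTG, at positions -19 to -14 from the start site, and in Cox7a1 it was CAAATG, at -124 to -119.

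Without serum, Cox8b was at 8.56, 7.63, 8.42, 8.57 and 8.17 in the 5 WT cultures and had a lowest, median and highest value of 7.60, 8.90 and 9.05 in the 6 TG cultures. TG replicate 5 lay at the level of the lowest WT culture, and the other 5 TG cultures were at 8.54 or higher. The difference of 0.40 (95% interval -0.19 to 0.98, adjusted p = 0.895) was the largest of the 51 genes and was within the spread between cultures. For Cox7a1 the WT values were 9.59, 8.74, 9.33, 9.50 and 9.50, and the TG cultures ran from 8.54 through a median of 9.92 to 10.07, a difference of 0.30 (-0.31 to 0.90, adjusted p = 0.915). The same 2 cultures, WT replicate 2 and TG replicate 5, were lowest. Cox6a2 was at 9.50, 9.24, 9.17, 9.26 and 9.37 in WT, and at 9.04, 9.62 and 9.89 (lowest, median and highest) in TG cultures, a difference of 0.27 (-0.04 to 0.58, adjusted p = 0.878). Without WT replicate 2 and TG replicates 4 and 5 the differences were 0.53, 0.50 and 0.42 for Cox8b, Cox7a1 and Cox6a2, with adjusted p of 0.160, 0.145 and 0.282. Without WT replicate 2 alone they were lower for Cox8b (0.24) and Cox7a1 (0.15), and without TG replicate 5 alone higher (0.61 and 0.51). Cox6a2 ranged from 0.21 without TG replicate 1 to 0.38 without TG replicate 5.

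With serum, Cox8b ran from 8.38 through a median of 9.09 to 9.73 in WT and from 8.60 through 9.89 to 10.11 in TG cultures. Genotypes overlapped, yet 6 of 7 TG cultures lay above the WT mean. The difference of 0.55 (-0.03 to 1.13, adjusted p = 0.494) was the largest of the 51 genes. Cox6a2 had a lowest, median and highest value of 8.49, 8.83 and 9.19 in WT and 8.61, 9.55 and 9.59 in TG cultures, a difference of 0.46 (0.12 to 0.81, adjusted p = 0.352). Cox7a1 stood at 9.10, 9.62 and 9.84 in WT and 9.22, 10.18 and 10.36 in TG cultures, a difference of 0.41 (0.04 to 0.79, adjusted p = 0.430). For all 3 genes TG replicates 2, 3, 4 and 7 were the highest TG cultures and TG replicate 6 was the lowest.

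The liver type isoforms differed less. Without serum the differences were 0.080 for Cox6a1 (interval -0.08 to 0.24), 0.093 for Cox7a2 (-0.12 to 0.30) and 0.072 for Cox8a (-0.13 to 0.28). With serum they were 0.017 for Cox6a1 (-0.14 to 0.18), 0.13 for Cox7a2 (-0.02 to 0.28) and -0.027 for Cox8a (-0.19 to 0.14). Their cultures stayed close together, as with Cox7a2 in WT myocytes with serum, where the 7 cultures ran from 9.96 to 10.13. The signs of Cox6a1 and Cox8a with serum turned under other settings, given in the closing section.

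Within each culture the heart type value minus its liver type partner compares isoforms on the same array. This shift between isoforms was larger in TG than in WT myocytes for all 3 pairs in both media, and the genotypes overlapped in all 6 comparisons. Without serum the TG mean was higher by 0.19 for Cox6a2 minus Cox6a1, by 0.20 for Cox7a1 minus Cox7a2 and by 0.32 for Cox8b minus Cox8a. Single cultures moved these values. Cox7a1 minus Cox7a2 was 0.10 without WT replicate 2 and 0.39 without TG replicate 5, Cox8b minus Cox8a was 0.22 and 0.48, and Cox6a2 minus Cox6a1 was 0.12 without TG replicate 1. With serum, Cox6a2 minus Cox6a1 went from -2.41 ± 0.16 (SD, n = 7) in WT to -1.97 ± 0.28 (SD, n = 7) in TG myocytes, a change of 0.45. Cox7a1 minus Cox7a2 went from -0.54 ± 0.22 to -0.25 ± 0.29, and Cox8b minus Cox8a from -1.48 ± 0.45 to -0.90 ± 0.46. In each pair 6 of 7 TG cultures were above the WT mean. These differences between isoforms were not tested. With genotype held fixed, heart type genes also rose more steeply with the mean of the cardiac myocyte markers. Their median slope was 0.92 without and 0.87 with serum, against 0.21 and 0.30 for liver type genes. With that mean as a covariate, the median heart type difference was 0.24 without and 0.14 with serum. The liver type median was then 0.074 and -0.084.

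**Figure D3:**
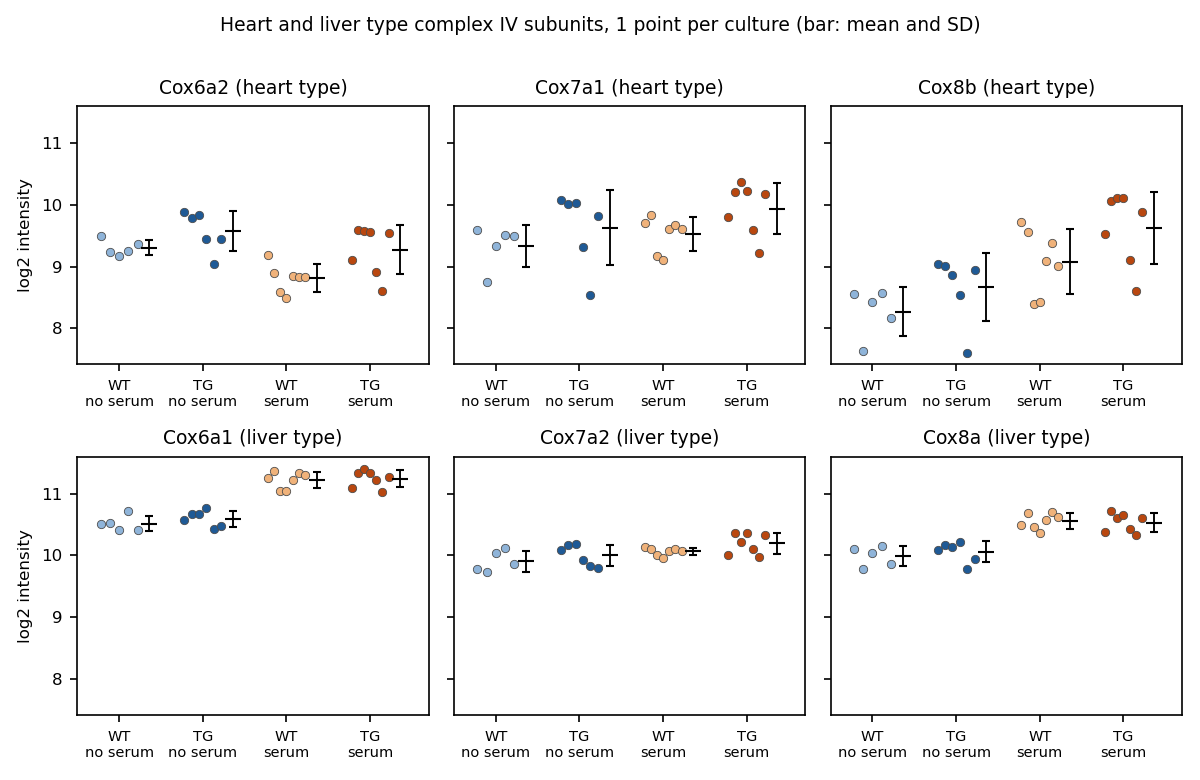
Log2 intensity of the heart type (top) and liver type (bottom) subunits Cox6a, Cox7a and Cox8 in WT and TG cultures without and with serum, 1 point per culture, with mean and SD as bars. Heart type points are spread widely within a group and sit higher in most TG cultures, whereas liver type points stay in a narrower band.

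The remaining subunits of complex IV differed by less. Cox4i1, Cox5a, Cox5b, Cox6b1, Cox6c and Cox7b have no heart type partner, and 6 of 6 were higher in TG myocytes in both media, with medians of 0.12 without and 0.13 with serum. Cox7b, a small subunit needed to assemble the complex, was the furthest apart of these. It was at 10.08, 9.71, 10.03, 10.24 and 10.01 in WT and at 9.74, 10.30 and 10.57 (lowest, median and highest) in TG cultures without serum, a difference of 0.27 with adjusted p = 0.878. With serum the WT cultures ran from 10.92 to 11.23 (median 11.17) and the TG cultures from 11.06 to 11.57 (median 11.45), a difference of 0.24 with adjusted p = 0.385. TG cultures thus reached above the WT range at the top and overlapped with it below. Cox7a2l, a relative of the Cox7a subunits that links complexes III and IV into supercomplexes, differed by 0.06 without and 0.10 with serum. For Cox4i1, Cox5a, Cox5b, Cox6b1 and Cox6c the differences were 0.06, 0.13, 0.10, 0.07 and 0.18 without and 0.09, 0.12, 0.13, 0.13 and 0.09 with serum.

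Isoforms restricted to other tissues mostly did not share this direction. Cox4i2 is the lung form of the regulatory subunit Cox4, and Cox6b2, Cox7b2 and Cox8c are testis forms. Of the 4, 0 were higher in TG myocytes without serum (45.2% of all genes) and 1 with serum (44.6%). A group of 4 is too small to set apart from these shares. Cox6b2 had the lowest difference of the 51 genes in both comparisons. Without serum it was at 7.38, 7.03, 7.38, 7.53 and 6.83 in WT and between 6.88 and 7.34 (median 7.06) in TG cultures, a difference of -0.11. With serum it ran from 6.67 through a median of 7.09 to 7.76 in WT and from 6.57 through 6.82 to 7.10 in TG cultures. All 7 TG cultures lay below the WT mean, and WT replicates 2, 6 and 7 lay above every TG culture. The difference of -0.43 (-0.76 to -0.10) had an adjusted p of 0.358 and ranged from -0.53 to -0.35 when single cultures were left out. Cox7b2 was dim (mean below 5) in both media and Cox8c without serum. Their differences were -0.09 and 0.06 for Cox7b2 and -0.03 and -0.12 for Cox8c, without and with serum. Cox4i2 differed by -0.07 and -0.02, and its sign with serum turned under other settings.

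Complex II showed the smallest shift without serum. Its catalytic subunits Sdha (the flavoprotein) and Sdhb (the iron-sulfur protein) differed by 0.041 and 0.040, and the membrane anchors Sdhc and Sdhd, which hold the ubiquinone site, by 0.088 and 0.071. With serum these 4 subunits differed by 0.16, 0.17, 0.14 and 0.17, and in each 6 of 7 TG cultures were above the WT mean. The median of complex II without serum was 0.044, and leaving out WT replicate 2, where Sdhb and Sdhd changed sign, gave -0.0015, whereas leaving out TG replicate 5 gave 0.10.

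Sdhaf4, a small assembly factor that binds the flavoprotein before it joins Sdhb, had the smallest p of the 51 genes with serum. Its WT cultures ran from 5.47 through a median of 5.57 to 5.89 and its TG cultures from 5.70 through 5.84 to 5.99. The genotypes overlapped through WT replicate 7 at 5.89, with the other WT cultures at 5.60 or lower, below every TG culture. The difference of 0.26 (0.11 to 0.42) had an adjusted p of 0.302. Without serum it was 0.13 (-0.03 to 0.29), with 6 of 6 TG cultures above the WT mean. A second, dimmer probe set for Sdhaf4 gave 0.0053 and -0.0044, so that the size of this difference rests on 1 probe set. The assembly factors Sdhaf1, Sdhaf2 and Sdhaf3 differed by -0.02, 0.05 and -0.05 without and by 0.05, 0.06 and 0.05 with serum.

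All 9 genes of complex III were higher in TG myocytes in both media. Uqcrq, a small subunit of the membrane part, had the smallest p of the complex without serum. It stood at 9.84, 9.62, 9.87, 9.84 and 9.75 in WT and at 9.74, 10.08 and 10.15 (lowest, median and highest) in TG cultures, a difference of 0.22 (0.05 to 0.40, adjusted p = 0.853). TG replicate 5 was the lowest TG culture, and the other 5 lay above every WT culture. With serum Uqcrq differed by 0.10. Uqcr11, another small subunit, differed by 0.24 without and 0.14 with serum (adjusted p = 0.878 and 0.567).

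With serum the smallest p of complex III was that of Uqcrb, which lies beside the ubiquinone site. WT cultures ran from 11.22 through a median of 11.47 to 11.58 and TG cultures from 11.48 through 11.58 to 11.74, so that all 7 TG cultures were above the WT mean while the ranges overlapped. The difference was 0.19 (0.05 to 0.33, adjusted p = 0.355), and 0.20 without serum. Uqcrfs1, the Rieske iron-sulfur protein that takes electrons from ubiquinol, ran from 8.20 to 8.74 in WT and from 8.39 to 8.92 in TG cultures, a difference of 0.26 (adjusted p = 0.398). The core protein Uqcrc2 differed by 0.22 (adjusted p = 0.430) and its partner Uqcrc1 by 0.14. Cyc1, the cytochrome that passes electrons on to cytochrome c, differed by 0.26 with serum and 0.047 without it, and the difference between these was within its error (0.22, interval -0.20 to 0.64).

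All 17 genes of complex V were higher in TG myocytes in both media as well. In the catalytic head Atp5a1 and Atp5b differed by 0.022 and 0.057 without serum, the smallest differences of the complex there, and by 0.13 and 0.11 with serum. Of the central stalk that turns within the head, Atp5e (the epsilon subunit) was at 8.85, 8.82, 8.79, 8.81 and 8.66 in WT and at 8.75, 9.04 and 9.21 (lowest, median and highest) in TG cultures without serum. The difference was 0.21 without (adjusted p = 0.855) and 0.22 with serum (adjusted p = 0.416), the only gene of the 51 with an unadjusted p under 0.05 in both media. WT cultures lay close together without serum, and 5 of 6 TG cultures were above the WT mean.

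In the membrane part, Atp5l (subunit g, which holds ATP synthase dimers together) had the smallest p of all 51 genes without serum. Its WT values were 9.14, 9.18, 9.35, 9.34 and 9.27, and TG cultures ran from 9.22 through a median of 9.61 to 9.85, a difference of 0.33 (0.10 to 0.55, adjusted p = 0.853). TG replicate 5 lay inside the WT range, and the other 5 TG cultures lay above every WT culture. The 5 other probe sets that name Atp5l gave 0.27 to 0.31, and with serum all 6 gave 0.17 to 0.21. Atp5md, a small subunit known as DAPIT, differed by 0.28 without serum. With serum it ran from 11.23 through 11.40 to 11.54 in WT and from 11.38 through 11.58 to 11.74 in TG cultures, a difference of 0.21 (0.07 to 0.35, adjusted p = 0.325), with 6 of 7 TG cultures above the WT mean. The c subunit of the rotating ring is made from 3 genes that give the same mature protein. Without serum Atp5g1, Atp5g2 and Atp5g3 differed by 0.15, 0.16 and 0.12, and with serum by 0.15, 0.076 and 0.16. With the mean of the myocyte markers as a covariate, the differences of Atp5g1 and Atp5g2 with serum were -0.073 and -0.0029, and 12 of the 17 genes of complex V stayed above 0.

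The peripheral stalk keeps the head from turning with the ring. Of its genes Atp5pb (subunit b) had the second smallest p with serum. WT cultures ran from 11.04 through a median of 11.18 to 11.33 and TG cultures from 11.30 through 11.41 to 11.56. All 7 TG cultures were above the WT mean, and only TG replicate 5 was below the highest WT culture. The difference was 0.21 (0.08 to 0.34, adjusted p = 0.310), and 0.17 without serum. A second, dimmer probe set for Atp5pb gave 0.17 with and 0.070 without serum. Atp5h (subunit d), Atp5j and Atp5o differed by 0.17, 0.098 and 0.20 with serum and by 0.20, 0.065 and 0.17 without it.

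Markers of cardiac myocytes were mostly higher in TG cultures too, whereas those of other cell types went in differing directions. Of the 20 cardiac myocyte markers 17 were higher in TG myocytes without serum (median 0.11) and 19 with serum (median 0.35). Their mean per culture ran from 10.35 to 11.42 in WT and 10.25 to 11.65 in TG myocytes without serum, and from 10.76 to 11.71 and 10.87 to 11.92 with serum. Of 12 endothelial markers 3 were higher in TG myocytes without serum and 0 with serum (median -0.22), where their mean ran from 6.07 to 6.88 in WT and 5.80 to 6.82 in TG myocytes. Pecam1 was at 4.49 to 5.52 without and 4.92 to 7.06 with serum, and 5 or 6 of the 12 were dim without serum and 1 with serum. Of 12 fibroblast markers 2 and 5 were higher, of 8 epicardial markers 2 and 2, of 11 macrophage markers 2 and 7, and of 8 smooth muscle markers 5 and 5. Of all genes 45.2% were higher without and 44.6% with serum.

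Cox7a1 and Cox8b had the steepest slopes of the 51 genes on the myocyte markers in both media. With genotype held fixed, Cox8b was higher by 0.92 per log2 unit of the myocyte marker mean without serum and by 1.38 with serum, Cox7a1 by 0.97 and 0.87 and Cox6a2 by 0.38 and 0.72. Without serum Cyc1 (0.50), Uqcrc1 (0.47), Cox7b (0.45), Sdha (0.42), Atp5h (0.41), Atp5g1 (0.41) and Atp5md (0.40) were also steeper than Cox6a2. The median slope over the 51 genes was 0.26 and 0.30, and the 3 liver type genes lay between 0.057 and 0.32. With the marker mean as a covariate, the median difference over the 51 genes was 0.087 without serum, where 45 remained above 0, and 0.043 with serum, where 37 did. Then 12 genes had an unadjusted p under 0.05 and were higher without serum (3.7% of all genes in that fit), and 5 were higher and 2 lower with serum (4.9% and 7.02%), with 0 past the adjusted threshold. The 2 lower genes were Cox6b2 (-0.53) and the liver type Cox8a (-0.12). Cox8b, Cox7a1 and Cox6a2 differed by 0.32, 0.21 and 0.24 without serum (adjusted p = 0.554, 0.605 and 0.636) and by 0.11, 0.14 and 0.23 with serum (0.621, 0.449 and 0.343). Sdhaf4 differed by 0.27 with serum in that fit and its slope was -0.021.

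**Figure D4:**
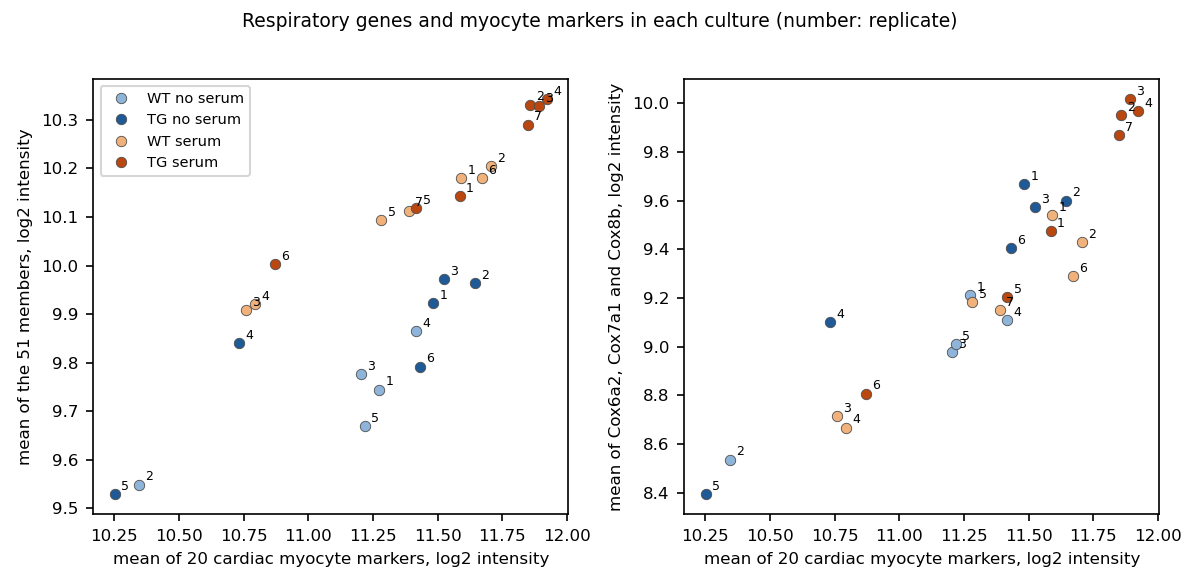
Mean of the 51 respiratory genes (left) and of Cox6a2, Cox7a1 and Cox8b (right) against the mean of 20 cardiac myocyte markers, all in log2 intensity, 1 point per culture labelled with its replicate number. Within each medium the points mostly rise with the marker mean, and on the marker axis they run from TG no serum 5 at 10.25 to TG serum 4 at 11.92. On the left TG no serum 4 (marker mean 10.73, gene mean 9.84) lies above WT no serum 1, 3 and 5, whose marker means are higher.

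Levels with and without serum are given as a description, because the deposited values of the arrays with serum had a wider spread and a higher median (5.21 to 5.36, against 4.99 to 5.09), so that an effect of the medium and of the array scale cannot be told apart. The mean over the 51 genes was 9.72 ± 0.12 (SD, n = 5) in WT and 9.84 ± 0.17 (SD, n = 6) in TG myocytes without serum, and 10.09 ± 0.12 and 10.22 ± 0.13 (SD, n = 7 each) with serum. Against a median of 0.41 for WT and 0.42 for TG, 5 genes had a lower mean in the serum arrays in both genotypes, which were Sdhaf1, Sdhaf4, Cox6a2, Cox7b2 and Atp5o. Cox6a2 went from 9.31 ± 0.13 to 8.81 ± 0.22 in WT and from 9.58 ± 0.33 to 9.27 ± 0.40 in TG myocytes, whereas Cox8b went from 8.27 ± 0.39 to 9.08 ± 0.53 and from 8.66 ± 0.55 to 9.63 ± 0.59 (SD). The heart type genes therefore did not share a direction between the media.

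Genes that work with these complexes were shifted by similar amounts, and none passed the adjusted threshold. Of 29 further assembly factors 23 were higher without serum (7 of them at an unadjusted p under 0.05) and 25 with serum (5). For comparison, 45.2% and 44.6% of all genes were higher without and with serum, and 1.84% and 5.15% were higher at that p. They included Surf1, needed to build complex IV, at 0.19 without serum, and Cox19, a copper-handling factor of the same complex, at 0.19 with serum. Of 16 electron carriers and enzymes of ubiquinone synthesis 15 and 14 were higher, with 0 and 5 at that p, among them cytochrome c itself (Cycs), which differed by 0.21 with serum (adjusted p = 0.325), and Etfa, of the electron transfer flavoprotein, by 0.26. All 35 subunits of complex I that were measured were higher with serum and 34 without it, with medians of 0.17 and 0.13. At an unadjusted p under 0.05, 14 of these were higher with serum and 2 without it. Ndufv3 differed by 0.35 with serum (adjusted p = 0.121), an adjusted p below that of any of the 51 genes (lowest 0.302). Of 19 regulators of respiratory genes 12 and 13 were higher. Tfb1m, an RNA methyltransferase for the mitochondrial ribosome, differed by 0.25 with serum (adjusted p = 0.290) and Mef2d, a muscle transcription factor, by 0.20 without it (adjusted p = 0.853).

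Of the 51 genes 39 had a promoter in the RefSeq table, and their 250 bases before the start site were set beside those of all 27025 genes with an entry, on both strands. NRF1 and GABP are activators known from respiratory promoters. The core of the NRF1 element (GCGCATGC or GCGCACGC) was in 8 of 39 (20.5%), against 5.09% of all genes, and the ETS core that GABP binds (CCGGAAG) was in 11 (28.2%), against 7.83%. An E-box (CANNTG) was in 24 (61.5%), against 69.3%. The 2 hexamers bound by Hey proteins in other studies (CACGTG, which is also an E-box, or CACGCG) were in 8 (20.5%), against 14.5%, of which 6 belonged to complex V, 2 to complex II and 0 to complexes III and IV. A TATAAA was in 3 (7.69%), against 14.3%. A match is a description of the letters and not a binding site, and binding was not measured here.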

How the data were processed

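RNA of 25 cultures was hybridised to Affymetrix Mouse Gene ST arrays. Per the submitters' processing notes, the authors ran RMA in Affymetrix Expression Console 1.1, and the deposited values are log2 intensities of 35557 probe sets. Whether arrays with and without serum were normalised together is not given in the sources used here. Of the per-sample columns 0 were left out. Precision is limited by how many arrays there are.

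A gene was read from its brightest probe set over the 25 arrays among those naming 1 gene. The 51 members have 72 probe sets, and 13 have several, which may lie at near-identical copies elsewhere in the genome, so these members are uncertain. Cox7c was only on probe sets shared with Gm12338 and is not a member.

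TG and WT were compared within each medium with limma 3.58.1 in R 4.3.3 (lmFit, eBayes), adjusted by Benjamini-Hochberg over all probe sets. The TG effect with serum minus that without came from 1 fit over all 25 arrays. The code was tested on simulated data. The members and lists were chosen with earlier results of these data known. Named genes are every isoform pair, the 3 smallest p per complex and comparison, and the extremes and widest spreads. Of the other lists some, but not all, of the genes with the smallest p are named. Members named beyond this rule (such as Sdha, Cyc1 and Atp5h) were chosen after their values were seen. Alternatives were the 25-array fit, array weights, a mean-variance trend, quantile normalisation again, median centring, no dim probe sets, averaged probe sets, a replicate block and left-out cultures. Leaving out WT serum replicates 3 and 4 with TG serum replicate 6, and the myocyte marker covariate, were added after seeing the data.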

Additional observations from a re-analysis of the deposited data

Results flagged for a closer look

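In 13 of 220 groups of 5 to 7 cultures, 1 culture stood far from the others of its group by Dixon's test. The 220 cover the 51 genes, their mean and the 3 isoform differences, each in 4 groups. Chance flags about 1 of 20 groups. TG no serum replicate 5 was low for Cox8b (7.60, next culture 8.54), Atp5g1 (9.66, next 10.21), Uqcrfs1 (8.07, next 8.41) and Sdhaf3 (4.81, next 5.14). TG no serum replicate 4 was high for Sdhaf4 (6.22, next 5.96) and Cox7a2l (9.53, next 9.27). WT serum replicate 7 was high for Sdhaf4 (5.89, next 5.60), TG serum replicate 3 was high for Cox8c (5.58, next 5.35), WT serum replicate 3 was low for Cox6b1 (11.16, next 11.52), and TG serum replicate 6 was low for Atp5j (11.49, next 11.71). In WT no serum Sdhaf3 was 5.19 in all 5 cultures, 4 of them at one identical value, so that replicate 4 stood apart only in the third decimal. In the difference of isoforms, WT serum replicate 1 was high for Cox6a2 minus Cox6a1 (-2.07, next -2.37) and WT no serum replicate 2 was low for Cox8b minus Cox8a (-2.15, next -1.69).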

How the results depend on the processing

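Under every alternative 0 of the 51 genes passed the adjusted threshold, and the medians over all 51 kept their sign. The count of genes higher at an unadjusted p under 0.05 without serum (4) was 8 in 1 fit over all arrays, 10 with array weights (1 lower), 2 with quantile normalisation again, 16 without the 3 cultures lowest in myocyte markers and 12 with the myocyte covariate, and 2 to 24 (0 to 1 lower) when single cultures were left out. With serum (11) it was 25 with array weights, 33 with each array centred on its median, 5 with the replicate block, 5 (2 lower) with the covariate, and 6 to 26 when single cultures were left out. The median of complex II with serum was 0.040 with the covariate. Median centring moved the median of all genes from -0.016 to 0.034 with serum. Array scale differed slightly between the genotypes. The array median averaged 5.02 in TG and 5.05 in WT cultures without serum, and 5.25 and 5.30 with serum. The SD over an array averaged 2.13 and 2.11 without and 2.57 and 2.56 with serum. Its share in the shift of these mostly bright genes was not tested.

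Signs with serum turned for some genes. Cox8a was 0.00508 with array weights and 0.022 centred, and Cox4i2 was 0.00770 with quantile normalisation and 0.030 centred. Cox6a1 was -0.021 without the 3 low cultures. With the covariate Cox6a1 was -0.084, Atp5g1 -0.073, Atp5k -0.021, Uqcrc1 -0.015, Sdhaf1 -0.011 and Atp5d -0.0083. Atp5mpl was -0.0060, Atp5g2 -0.0029, Uqcr10 -0.00072 and Sdha -0.00065 in that fit, and Cox8a stayed below 0 at -0.12. Without the covariate Sdha was 0.16 and Atp5g1 0.15. Leaving out single cultures gave -0.0087 to 0.11 for Sdhb, -0.00066 to 0.12 for Sdhd and -0.057 to 0.0031 for Cox8c without serum, and -0.049 to 0.0099 for Cox4i2, -0.015 to 0.053 for Cox6a1 and -0.060 to 0.0063 for Cox8a with serum. The causes were not tested.

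Culture numbers are shared between the genotypes, and residuals of same-numbered cultures correlated at -0.45 to 0.15 without and -0.36 to 0.062 with serum. These correlations cannot decide whether the numbers pair the cultures. The labels do not give the preparations, and a figure of the study numbers the cultures without serum differently. The replicate block gave 6 genes without serum.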
